A study of Mus musculus with 12 samples.

Results

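The 32 genes described here encode soluble hydrolases, their activators and membrane proteins of the lysosome, without cathepsins and the proton pump. They were chosen by symbol, and all 32 were found among the 24221 genes of the authors' deposited table, and all 32 were tested there. The study profiled mouse cells of an acute myeloid leukaemia driven by the MLL-AF9 fusion oncogene, on a C57BL/6 background, in 12 RNA libraries. In the comparison used here, Riok2fl/fl cells, whose Riok2 alleles are flanked by loxP sites, were given hydroxytamoxifen (OHT) in 3 samples, and the same Riok2fl/fl cells were given the solvent ethanol (EtOH) in 3 samples. RNA was taken 72 h later. OHT switches on tamoxifen-dependent Cre recombinases. The labels do not name the Cre, the exons removed or the number of clones, and both groups carry the floxed alleles. No OHT-treated cells without floxed alleles enter the comparison, so effects of OHT itself and of Riok2 loss cannot be told apart. MLL-AF9 cells given a RIOK2 inhibitor at 1 µM and MLL-AF9 cells given DMSO, 3 samples each, are not analysed here.

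Lysosomes are acidic organelles in which macromolecules brought in by endocytosis, phagocytosis and autophagy are broken down. Most soluble hydrolases reach them with a mannose 6-phosphate tag, and each removes one kind of bond or sugar, so that long chains are taken apart by several enzymes in turn. Loss of a single enzyme or transporter lets its substrate pile up, which is the basis of the lysosomal storage diseases. Macrophages and their precursors are rich in lysosomes because they digest engulfed material.

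The authors' deposited table gives for each gene its base mean (reads normalised for library size, averaged over the libraries), log2 fold change, standard error (SE), Wald p-value and Benjamini-Hochberg adjusted p-value, and no value per sample. Folds are read as OHT over EtOH because Riok2, the targeted gene, had a value of -3.60 ± 0.20 there (authors' SE, adjusted p = 7.8e-69 by the authors' deposited table), which leaves 8.25% of its EtOH level in OHT (95% interval 6.28 to 10.8%). Over all genes the base means added up to 20307732 normalised reads per library. The smallest base means, of genes with a single read, gave the size factors of 6 libraries: 1.88, 1.01 and 0.697 on the OHT side and 1.11, 0.870 and 0.783 on the EtOH side. The OHT-side library with the size factor of 0.697 stood apart, with 245 genes read only once and only in it, or 351 per unit of size, beside 168 to 211 per unit in the others. The folds cannot be recomputed without it, so its part in the results below was not tested. Nothing in the labels says that replicates were separate cultures, and the spread behind the p-values may then be technical. The labelled cell type had its markers: in the authors' deposited table the leukocyte antigen gene Ptprc had a base mean of 9796, and the leukaemia genes Hoxa9 and Meis1 had 3009 and 1648. Both of these leukaemia genes were lower in OHT, Hoxa9 by a log2 fold change of -0.55 ± 0.19 (adjusted p = 0.0098) and Meis1 by -0.41 ± 0.14 (adjusted p = 0.0082) by the authors' deposited table.

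Most of the lysosomal genes were higher in OHT. Of the 32, 23 rose, 1 fell and 8 did not pass the authors' adjusted p-value of 0.05, and 13 of the 23 rose past a fold of 2. Across the 13814 genes tested, 48.9% were called at the same threshold in the authors' deposited table, 25.5% higher and 23.4% lower in OHT, and 13.6% were higher past a fold of 2. Among the 9888 tested genes of base mean 100 or more, which all 32 reach, 29.2% were higher, 30.0% lower and 13.0% higher past a fold of 2. The median log2 fold change of the 32 was 0.71 (quartiles 0.35 and 1.25), beside 0.05 over all tested genes (quartiles -0.47 and 0.67). Above that upper quartile lay 19 of the 32. The genes differed widely among themselves, with folds between -0.30 for Arsa and 2.45 for Lipa on the log2 scale. The rank correlation of their log2 fold change with the base mean was 0.27 and with exon length 0.30 (Spearman, across 32 genes measured in the same libraries, a description only).

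**Figure D1:**
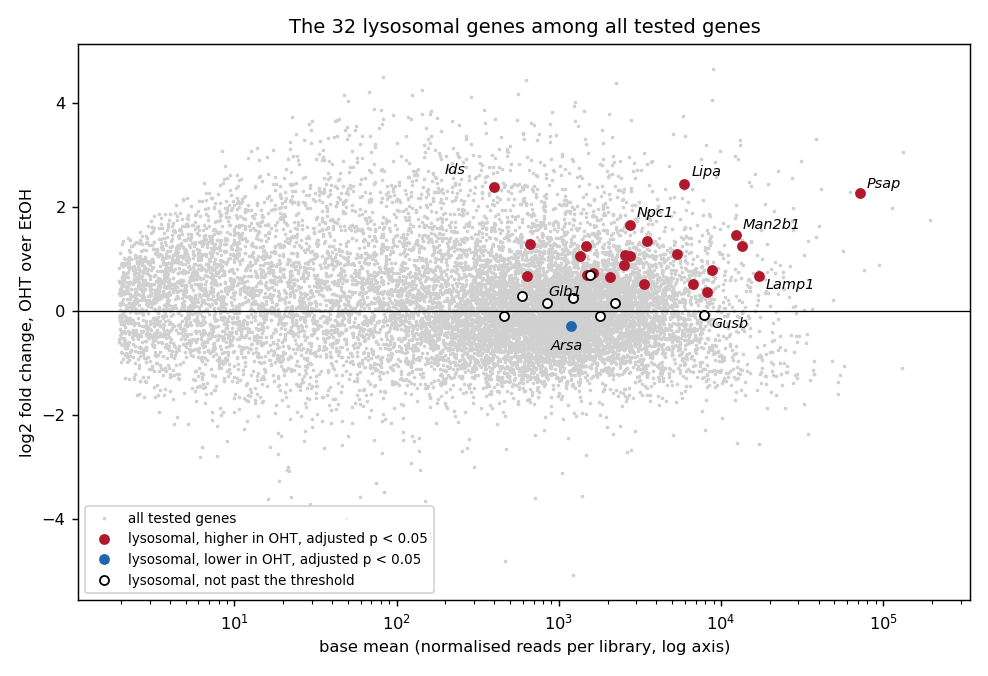
Log2 fold change, OHT over EtOH, against base mean on a log axis for all 13814 tested genes (grey) and the 32 lysosomal genes (red higher, blue lower, open circles not past the threshold), all from the authors' deposited table. The lysosomal genes lie to the right of most genes and mostly above 0, with Psap at the far right and Arsa as the 1 blue point.

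The 32 were abundant transcripts. Their base means ranged from 397 for Ids to 71811 for Psap in the authors' deposited table, with a median of 2375, beside 519 over all tested genes, and 22 of the 32 lay above the upper quartile. Per kilobase of exon, the median base mean was 523, beside 125 over the 12531 tested genes with a length. The errors were small at this depth: the median SE was 0.15 on the log2 scale, beside 0.18 for tested genes of base mean 100 or more. Glb1 alone had an SE above 0.3, at 0.49 in the authors' deposited table.

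From each base mean and fold, a level per group was worked out for groups of equal size. It is called the implied level here, in normalised reads per library. The authors' folds appear to be pulled towards 0 by a prior, so an implied difference is if anything too small. Summed over the 32 genes, implied levels came to 277054 in OHT and 112299 in EtOH, a ratio of 2.47. They made up 1.33% of the implied total of all genes in OHT and 0.567% in EtOH. Psap alone supplied 43.0% of the lysosomal sum in OHT and 21.9% in EtOH, and without it the ratio was 1.80. In bulk samples, a change in the number of cells of one type and a change in RNA per cell cannot be told apart.

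**Figure D2:**
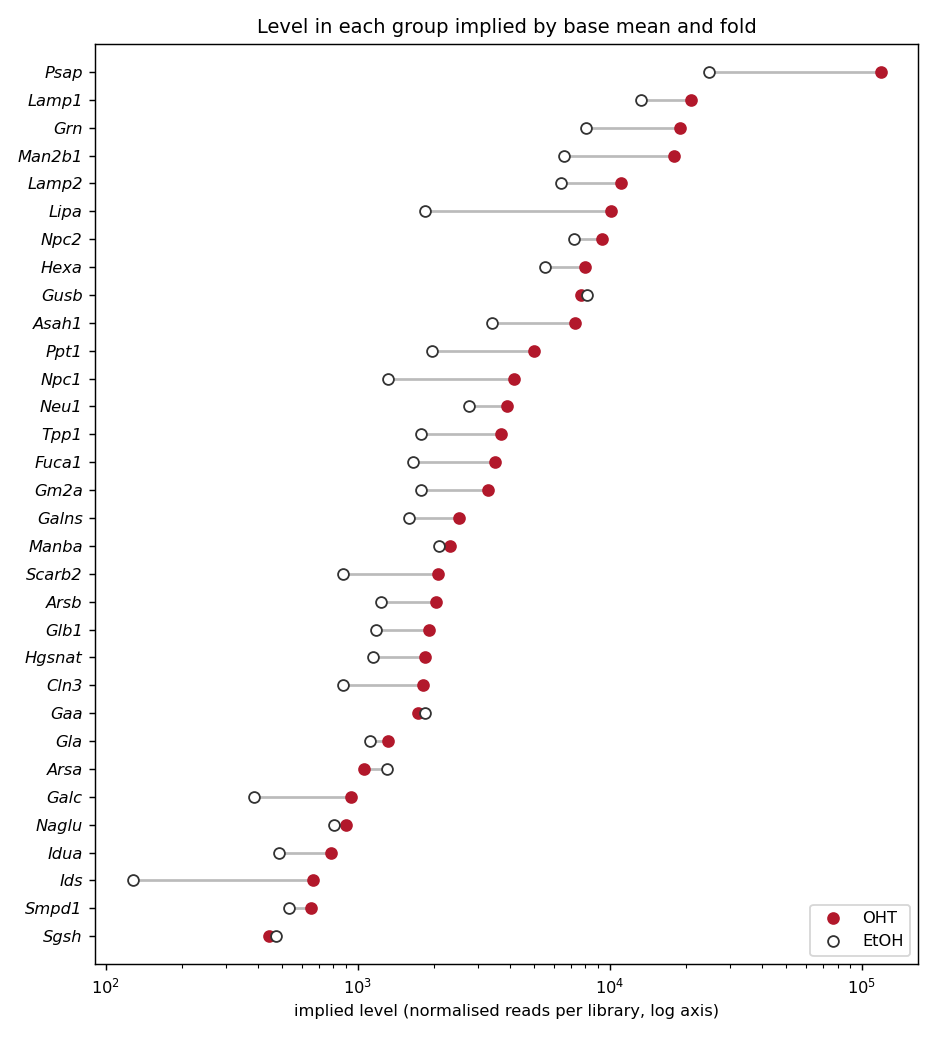
Implied level of each of the 32 genes in OHT (filled red) and EtOH (open), in normalised reads per library on a log axis, ordered by the OHT level. Psap stands highest in both groups, and the widest gaps are those of Lipa, Ids and Psap.

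The activators rose together, led by the most abundant gene. These proteins cut nothing themselves: saposins and the GM2 activator lift lipids out of membranes so that hydrolases can reach them. Psap, the precursor of the saposins (GRCm38 chromosome 10, 60277627 to 60302597, plus strand), had implied levels of 119009 in OHT and 24613 in EtOH. Its fold of 4.84 had a 95% interval of 4.02 to 5.82 (2.27 ± 0.14 on the log2 scale, adjusted p = 1.4e-59, by the authors' deposited table). Its base mean was above that of 99.9% of tested genes, and per kilobase of exon it also stood above 99.9%. Grn encodes progranulin, a secreted and lysosomal protein cut into granulin peptides. It rose by 1.25 ± 0.11 on the log2 scale in the authors' deposited table, with implied levels of 19054 in OHT and 8026 in EtOH. Gm2a, the GM2 ganglioside activator, rose by 0.89 ± 0.15 in the authors' deposited table.

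Genes for neutral lipid and cholesterol handling also rose, all 3 of them. Lipa encodes the acid lipase that frees cholesterol and fatty acids from esters taken up with lipoproteins (GRCm38 chromosome 19, 34492318 to 34527474, minus strand). It had implied levels of 10058 in OHT and 1846 in EtOH, and its rise by 2.45 ± 0.21 (log2 fold change, adjusted p = 2.1e-28) by the authors' deposited table was the largest of the 32. The free cholesterol is passed by the soluble carrier NPC2 to the membrane protein NPC1, which moves it out of the lysosome. Npc1 (GRCm38 chromosome 18, 12189692 to 12236400, minus strand) rose by 1.65 ± 0.12 (adjusted p = 1.9e-44) and Npc2 by 0.37 ± 0.12 (adjusted p = 0.0054) by the authors' deposited table. Implied levels of Npc1 were 4159 in OHT and 1322 in EtOH, and those of Npc2 were 9265 in OHT and 7186 in EtOH. Per kilobase of exon, the base mean was 1513 for Npc2 and 242 for Npc1.

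**Figure D3:**
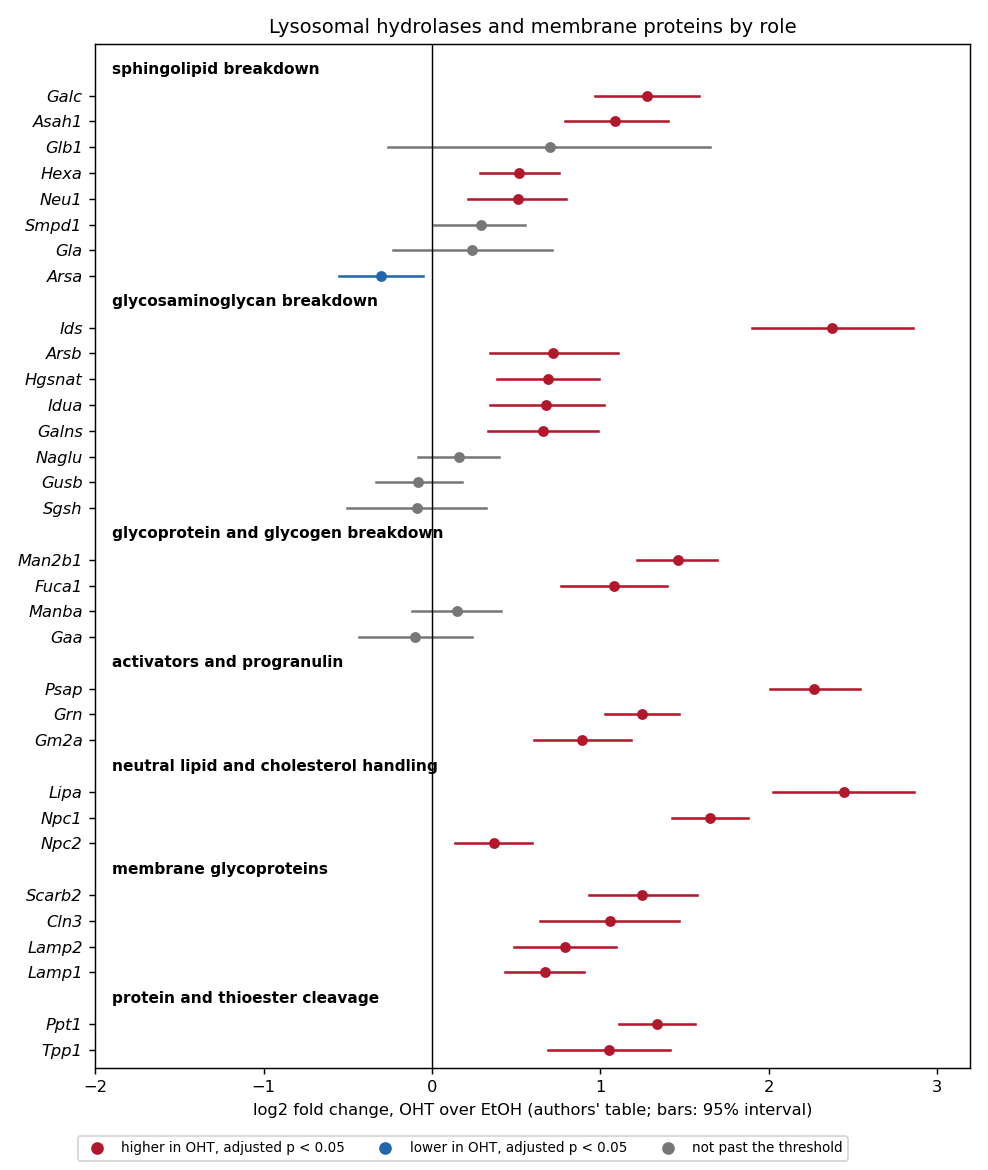
Log2 fold change, OHT over EtOH, of the 32 genes grouped by role, from the authors' deposited table, with 95% intervals from its standard errors. Every gene of the lower 4 groups, from Psap to Tpp1, is red, and the 9 genes that did not rise all belong to the upper 3 groups of breakdown enzymes.

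Among 8 enzymes of sphingolipid breakdown, 4 rose, 1 fell and 3 did not pass. Galc, which removes galactose from galactosylceramide, rose by 1.28 ± 0.16, and Asah1, the acid ceramidase at the end of the pathway, by 1.09 ± 0.16 in the authors' deposited table. Smaller rises in the authors' deposited table were those of Hexa, the alpha subunit of the hexosaminidase that trims GM2 ganglioside, at 0.52 ± 0.12, and of the sialidase Neu1, at 0.51 ± 0.15. Implied levels of Galc were 938 in OHT and 386 in EtOH, and those of Asah1 were 7277 in OHT and 3410 in EtOH. The gap was narrower for Hexa, with 7975 in OHT and 5545 in EtOH, and for Neu1, with 3920 in OHT and 2759 in EtOH.

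The 1 gene that fell was Arsa, the arylsulfatase that removes sulfate from sulfatide with the help of a saposin. Its implied levels were 1059 in OHT and 1308 in EtOH, and its log2 fold change was -0.30 ± 0.13 (SE, adjusted p = 0.037) by the authors' deposited table. With the folds centred on the median of all tested genes of base mean 100 or more, its adjusted p was 0.054. The alpha-galactosidase gene Gla had 0.24 ± 0.24 (adjusted p = 0.42) and the acid sphingomyelinase gene Smpd1 had 0.29 ± 0.14 (adjusted p = 0.069) by the authors' deposited table. Centred in the same way, Smpd1 had an adjusted p of 0.049. Glb1, the beta-galactosidase that acts on GM1 ganglioside, had 0.70 ± 0.49 (adjusted p = 0.24) there, a fold of 1.62 with a 95% interval of 0.835 to 3.14. It shares 165 exon bases with Tmppe, a gene on the same strand inside it, so reads there could come from either gene.

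Of 8 genes of glycosaminoglycan breakdown, 5 rose, none fell and 3 did not pass. Heparan sulfate is taken apart from its free end by sulfatases, glycosidases and an acetyltransferase in turn, and 6 of these genes are among the 32. Ids, the iduronate 2-sulfatase (GRCm38 chromosome X, 70343069 to 70365084, minus strand), rose most, with implied levels of 666 in OHT and 128 in EtOH. Its log2 fold change was 2.38 ± 0.25 (SE, adjusted p = 1.5e-20) by the authors' deposited table. The enzyme that acts next on the same sugar, the iduronidase Idua, rose by 0.68 ± 0.17, and the membrane acetyltransferase gene Hgsnat by 0.69 ± 0.15 in the authors' deposited table.

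The other heparan sulfate enzymes did not pass. The sulfamidase gene Sgsh stood at -0.09 ± 0.21 (adjusted p = 0.75), the glucosaminidase gene Naglu at 0.16 ± 0.12 (adjusted p = 0.28) and the glucuronidase gene Gusb at -0.08 ± 0.13 (adjusted p = 0.64) by the authors' deposited table. Per kilobase of exon, Gusb had the highest base mean of the 8, at 1733. Its implied levels were 7669 in OHT and 8097 in EtOH, and its fold of 0.947 had a 95% interval of 0.795 to 1.13. For Naglu the interval of the fold was 0.946 to 1.32, and for Sgsh 0.705 to 1.25. Of the sulfatases for other chains, Arsb, which acts on dermatan and chondroitin sulfate, rose by 0.72 ± 0.19, and Galns, which acts on keratan and chondroitin sulfate, by 0.66 ± 0.17 in the authors' deposited table. Summed over the 8 genes, implied levels were 16870 in OHT and 13966 in EtOH, a ratio of 1.21.

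Of 4 glycosidases for glycoproteins and glycogen, 2 rose and 2 did not pass. The alpha-mannosidase gene Man2b1 had implied levels of 18007 in OHT and 6563 in EtOH, and rose by 1.46 ± 0.12 (log2 fold change, adjusted p = 2.9e-32) by the authors' deposited table. Fuca1, the fucosidase, rose by 1.08 ± 0.16 in the authors' deposited table. Manba, the beta-mannosidase that removes the last mannose of the same N-glycans, stood at 0.15 ± 0.14 (adjusted p = 0.39), and Gaa, the acid alpha-glucosidase of glycogen, at -0.10 ± 0.17 (adjusted p = 0.66) by the authors' deposited table. The 95% interval of the fold was 0.920 to 1.33 for Manba and 0.740 to 1.18 for Gaa, and it was 2.33 to 3.23 for Man2b1.

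All 4 genes of the membrane glycoprotein group and both remaining hydrolases rose. Lamp1 and Lamp2, heavily glycosylated proteins that line the lysosomal membrane, rose by 0.67 ± 0.12 and 0.79 ± 0.15 in the authors' deposited table. Lamp1 had implied levels of 21061 in OHT and 13242 in EtOH. Per kilobase of exon, its base mean of 6412 was second among the 32 only to the 26170 of Psap. Scarb2, the receptor that carries glucocerebrosidase to lysosomes, rose by 1.25 ± 0.16, and Cln3, a lysosomal membrane protein lost in juvenile Batten disease, by 1.06 ± 0.21 in the authors' deposited table. Tpp1, a tripeptidyl peptidase, rose by 1.05 ± 0.19 and Ppt1, which removes fatty acids from palmitoylated proteins, by 1.34 ± 0.12 in the authors' deposited table. Cln3 shares 442 exon bases with Apobr on the other strand (base mean 4217, log2 fold change 1.90), and Ppt1 shares 129 with Cap1 on the other strand (base mean 15379, log2 fold change 1.35), in the authors' deposited table. The sources used here do not say whether counting used strand, so the values of Cln3 and Ppt1 are uncertain to that extent. The same holds for Npc1, which shares 511 exon bases with Rmc1, and for Idua, which shares 124 exon bases with Dgkq on the other strand (base mean 323 in the authors' deposited table), and for Arsb, which shares 1948 exon bases with the lincRNA gene Gm26527 on the other strand. It also holds for Sgsh, which shares 955 exon bases with Card14, and for Arsa, which shares 690 with C230037L18Rik, both on the other strand. Hexa shares 255 with Tmem202 and Lamp1 249 with Grtp1, again on the other strand. Base means of these partners were 2.87, 35.5, 24.5 and 42.9, in that order, in the authors' deposited table. Galc shares 400 with Gm47439 and Grn 68 with Fam171a2 on the other strand. Riok2 shares 362 with the antisense gene Gm26873. No values of Rmc1, Gm26527, Gm47439 or Gm26873 were used here.

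Many lysosomal promoters carry the E-box CACGTG, which the TFEB family of transcription factors (TFEB, TFE3, MITF and TFEC) can bind, often within the longer palindrome TCACGTGA. In the authors' deposited table Tfeb rose by 1.16 ± 0.21, Tfe3 by 1.12 ± 0.15 and Mitf by 2.38 ± 0.30, and Tfec stood at 0.05 ± 0.24 (adjusted p = 0.87). Promoter windows from RefSeq (GRCm38.p6) were matched by symbol for 28 of the 32 genes, leaving Asah1, Galns, Hgsnat and Npc1. In the 250 bases before the RefSeq start, 8 of the 28 (28.6%) held CACGTG, which reads the same on both strands, beside 9.62% of 10376 matched tested genes and 6.02% of all 32851 windows of that length. The 8-letter TCACGTGA, which contains the 6-letter motif, was in 2 of the 28, Gla and Cln3, beside 1.69% of the matched tested genes. The stretches with the motif are shown with the motif in capitals, each written 5′ to 3′ on the gene's strand.
Gla, at chrX:134601215-134601244: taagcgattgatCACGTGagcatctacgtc
Gla, at chrX:134601182-134601211: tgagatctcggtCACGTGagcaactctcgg
Glb1, at chr9:114401018-114401047: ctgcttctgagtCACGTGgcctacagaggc
Naglu, at chr11:101070009-101070038: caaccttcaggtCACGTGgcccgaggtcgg
Sgsh, at chr11:119355522-119355551: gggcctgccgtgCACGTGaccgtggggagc
Gaa, at chr11:119267811-119267840: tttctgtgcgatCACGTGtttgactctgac
Arsa, at chr15:89477425-89477452: tcaactcagtgtCACGTGttgtctgctc
Cln3, at chr7:126583368-126583397: gcaaccctcaagCACGTGatggaaggctca
Cln3, at chr7:126583340-126583369: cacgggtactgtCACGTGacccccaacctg
Lamp1, at chr8:13159090-13159160: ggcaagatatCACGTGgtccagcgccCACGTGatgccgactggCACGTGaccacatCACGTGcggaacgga

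Lamp1 held 4 copies within the 71 bases before its start, Gla and Cln3 held 2 each, and the other 5 genes held 1 each. The Cln3 copies belong to one of the 2 starts that RefSeq gives for it. Starts here are those of RefSeq, and by the GENCODE gene ends the motif lies inside the gene for 2 of the 8, beginning 9 bases past the 5′ end in Naglu and 2432 and 2460 bases past it in Cln3. In Sgsh it begins 3 bases before the GENCODE 5′ end and runs across it. Of the 8 genes with the motif, 2 rose (Cln3 and Lamp1), 1 fell (Arsa) and 5 did not pass (Gla, Glb1, Naglu, Sgsh and Gaa), with a median log2 fold change of 0.20. Of the 20 matched genes without it in this window, 17 rose, none fell and 3 did not pass (Smpd1, Manba and Gusb), with a median of 0.97. The genes with the steepest rises, Lipa, Ids and Psap, had no CACGTG in the window. Over all matched tested genes, 28.0% of those with the motif and 25.8% of those without it were higher in OHT. The split of the lysosomal genes by motif was seen in these data and was not tested, and a match of letters is not evidence of binding.

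**Figure D4:**
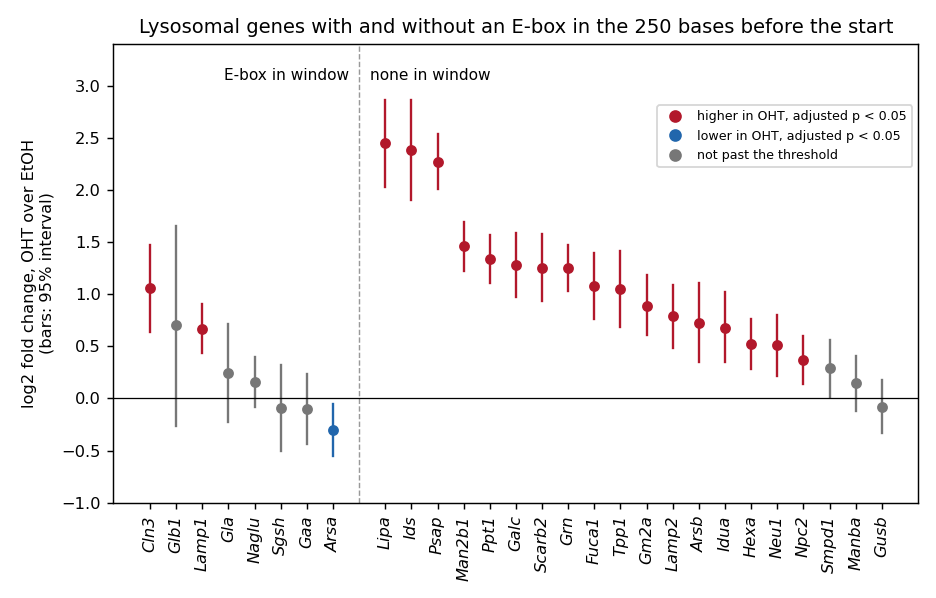
Log2 fold change, OHT over EtOH, with 95% intervals, for the 28 genes with a promoter window, those with the E-box in the 250 bases before the start on the left (8 genes) and those without it on the right (20 genes). On the left only Cln3 and Lamp1 are red, and on the right all but Smpd1, Manba and Gusb are.

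Other lysosomal lists showed where the 32 genes stood within the organelle. Of 27 further hydrolases tested, 15 rose and none fell (median log2 fold change 0.52). Pld3, a lysosomal exonuclease, rose by 2.56 ± 0.21 on the log2 scale in the authors' deposited table. Of 14 cathepsins, 11 rose and 1 fell (median 1.54): Ctss stood at 2.93 ± 0.29 and Ctsk at 2.92 ± 0.74, while Ctsg, a serine protease of neutrophil granules, stood at -2.56 ± 0.12 in the authors' deposited table. Of 18 tested subunits of the proton pump that acidifies lysosomes, 14 rose and none fell (median 0.57), led in the authors' deposited table by Atp6v0d2 at 3.34 ± 0.71 and Atp6v0a1 at 2.04 ± 0.22. Of 19 genes listed for tagging and sorting of hydrolases, 7 rose and 2 fell (median 0.24). Beside these counts, 29.2% were higher and 30.0% lower among all tested genes of base mean 100 or more. The list also holds the sulfatase modifying factor genes, with Sumf1 (0.87 ± 0.16) among the 7 and Sumf2 among the 2. Sort1 (1.57 ± 0.24) and Sorl1 (1.46 ± 0.23) rose, Sumf2 (-1.22 ± 0.17) and Ap1s1 (-0.50 ± 0.13) fell, and the mannose 6-phosphate receptor gene M6pr stood at -0.05 ± 0.12 (adjusted p = 0.77) by the authors' deposited table.

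**Figure D5:**
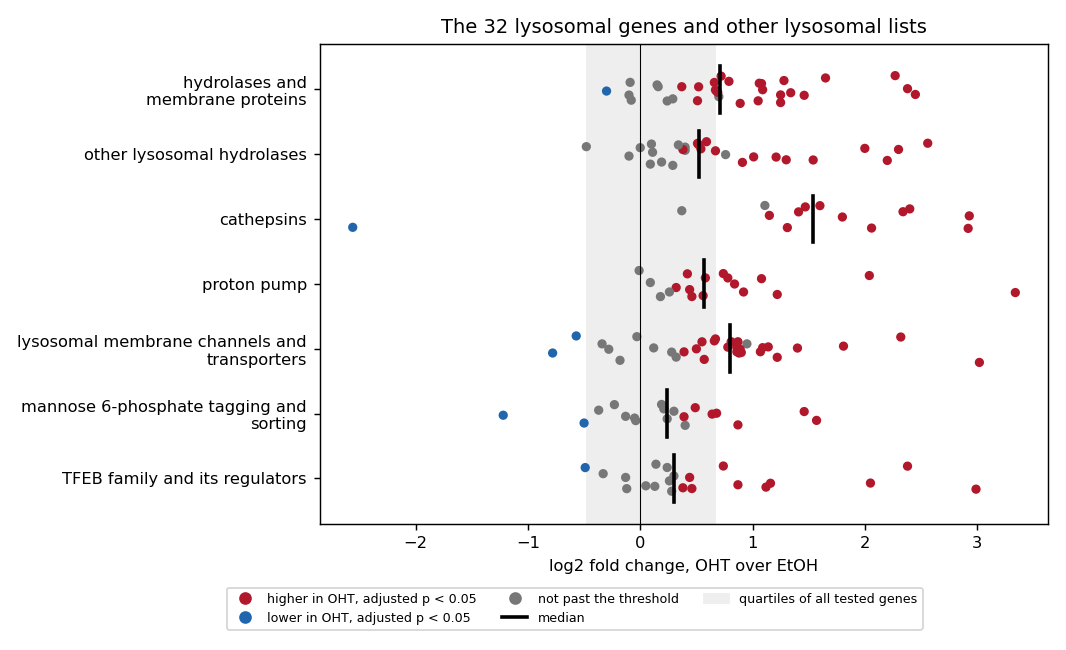
Log2 fold change, OHT over EtOH, of each tested gene of the 32 and of 6 other lysosomal lists, from the authors' deposited table, with the list medians as black bars and the quartiles of all tested genes in grey. The median of the 32 genes, 0.71, lies between those of the proton pump (0.57) and the lysosomal membrane channels and transporters (0.80). The cathepsins have the highest median, 1.54, and the sorting list has the lowest, 0.24.

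Markers of monocytes, macrophages and later neutrophil stages rose beside the lysosomal genes. All 11 monocyte and macrophage markers were higher in OHT (median log2 fold change 2.59, implied levels summing to 271805 in OHT and 36053 in EtOH). Of these sums, Lyz2 alone made up 235036 in OHT and 28388 in EtOH. The median SE of this list was 0.55. All 11 neutrophil markers found in the table were higher too (median 2.29, sums of 752530 in OHT and 189306 in EtOH). That neutrophil list holds no genes of the primary granules, which are made at the promyelocyte stage. Of these, 4 named after their values were seen fell in the authors' deposited table: Mpo by a log2 fold change of -2.37 ± 0.23, Prtn3 by -1.79 ± 0.19, Elane by -1.60 ± 0.17 and, from the cathepsin list, Ctsg. Of 7 mast cell and basophil markers tested none passed, with a median of 0.70 and sums of 30864 in OHT and 19313 in EtOH over all 8. Their median SE was 0.64. None of 7 erythroid and megakaryocyte markers passed, and Hba-a1, Hbb-bs and Hbb-b1 were listed at 0. Lymphoid markers gave 2 rises of 3 tested, Cd3d and Cd79a with base means of 16.0 and 9.49 in the authors' deposited table, and Cd3e and Ms4a1 were listed at 0. Of 4 stromal and endothelial markers tested, Col1a1 rose (base mean 35.3 in the authors' deposited table), and Dcn and Lum were listed at 0. A 0 in this table may come from counting and does not show absence: Atp6v0c, a core subunit of the proton pump, had a base mean of only 1.53 in the authors' deposited table. The part of these cell types in the folds of the lysosomal genes was not tested.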

How the data were processed

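The members and the gene lists were chosen with earlier results of these data known. The submitters' processing notes name the build mm10 and the tools STAR 2.7.2b, Trimmomatic 0.38.0, HTSeq 0.9.1, DESeq2 and DESeq. For annotation and counting options, the sources used here give nothing. The authors deposited 1 comparison table: base means (a signal in normalised reads), log2 fold changes and SEs, Wald scores, and p-values, raw and adjusted. As checked on the values, the score equals fold over SE to within 7.6e-08, and the adjusted p-value is the Benjamini-Hochberg one over 13814 genes (largest gap 2.3e-07). No SE exceeds 0.747, as if a prior had pulled folds towards 0.

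No test of samples was possible, so the authors' adjusted p-value under 0.05 was used throughout. The 95% intervals are the fold ± the normal quantile times SE. Implied levels assume equal groups. Exon lengths, positions and overlaps came from GENCODE M21 (GRCm38), and promoters from RefSeq. Named genes were all 32 members, Riok2, the TFEB family and, from each other lysosomal list, the 2 largest called rises and falls of base mean 100 or more; others were named after their values were seen. Genes that the rule names but the text does not are not reported here. The centring and the motif search were tested on simulated data. Alternatives were other thresholds, a fold minimum, centring and filters. Python 3.11.15 with pandas 2.3.3 and scipy 1.17.1 was used.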

Additional observations from a re-analysis of the deposited data

How the results depend on the processing

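The count of 23 rises was 23 with an adjusted p-value under 0.01 and 24 with one under 0.1. It was 23 with a base mean of at least 100, and with genes of an SE above 0.5 left out. Folds centred on the median of tested genes of base mean 100 or more (-0.021) gave 24 rises. Past a fold of 2 the count was 13. Over all 13814 tested genes, 3521 rose at 0.05, 2855 at 0.01 and 3907 at 0.1. Past a fold of 2 there were 1882 rises, and centred folds gave 3619. Genes of base mean 100 or more gave 2892 rises, and leaving out those of an SE above 0.5 gave 3084. The count of 1 fall was 0 with an adjusted p-value under 0.01, past a fold of 2 and with centred folds. Over all tested genes, 3231 fell at 0.05, 2640 at 0.01, 1009 past a fold of 2 and 3123 with centred folds. The median log2 fold change of 0.71 lay between 0.71 and 0.82 under its alternatives. The ratio of summed implied levels, 2.47, was 1.80 without Psap and 1.78 without Psap, Lamp1 and Grn. The motif count of 8 was 2 for TCACGTGA and 8 in the whole window of 300 bases. Of the 32 single genes, centring changed the call of 2, Arsa (-0.28, lost) and Smpd1 (0.31, gained). Leaving out each replicate was not run because the table has no values per sample. No paired analysis was possible because the columns carry no sample or replicate number. Among the genes that did not pass, SEs were largest for Glb1, Gla and Sgsh, at 0.49, 0.24 and 0.21 in the authors' deposited table. They did not all follow depth. Smpd1 had an SE of 0.14 at a base mean of 592 in the authors' deposited table. Base means of Glb1 and Gla were higher there, at 1547 and 1219. Sgsh had the lowest base mean of the genes that did not pass, at 460 in the authors' deposited table. Gusb had the highest there, at 7883, with an SE of 0.13.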

Other observations

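Of 32 channels and transporters of the lysosomal membrane, 22 rose and 2 fell (median log2 fold change 0.80). In the authors' deposited table the largest rises were those of Slc15a3, a transporter of peptides and histidine, at 3.02 ± 0.25 and Cd68, the macrophage glycoprotein related to LAMP proteins, at 2.32 ± 0.16. The falls in the authors' deposited table were Laptm4b (-0.78 ± 0.19) and Cln6, which acts in the endoplasmic reticulum in the transfer of lysosomal enzymes (-0.57 ± 0.14). Of 21 genes of the TFEB family and its regulators, 10 rose and 1 fell (median 0.30). Both lists stand beside 25.5% of all tested genes higher and 23.4% lower in OHT at the same threshold. Beside Mitf, the folliculin partner gene Fnip2 rose by 2.05 ± 0.21, and the calcineurin subunit gene Ppp3cb stood at -0.49 ± 0.15 (adjusted p = 0.0024) by the authors' deposited table.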
